A study of Mus musculus with 7 samples.

Results

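Small RNA of mouse colorectum was sequenced, and 8 microRNAs (miRNAs) that laboratories commonly use as reference controls were followed in it. The members were set by name: mmu-miR-191-5p, mmu-miR-425-5p, mmu-miR-103-3p, mmu-miR-107-3p, mmu-miR-423-3p, mmu-miR-423-5p, mmu-miR-361-5p and mmu-miR-186-5p. All 8 were among the 1915 entries of the deposited count table, and all 8 were among the 878 entries abundant enough to be tested. The question was which of them stayed level between diseased and healthy colorectum when the libraries were scaled in 3 ways.

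The 3 CRC mice (M4, M5 and M6) were injected with 10 mg per kg of azoxymethane (AOM), which initiates colon tumours in rodents. From 5 days later they drank 2.5% dextran sodium sulfate (DSS), an agent that damages the gut epithelium, for 7 days, and plain water for the 14 days after it. The labels place these mice at stage T1, day 17, and also say that the course was repeated; how the day relates to the course was not established here. The 3 healthy mice (M1, M2 and M3) had received 0.9% saline in place of AOM. All were wild-type C57BL/6 females, 7 weeks old at the start. Mouse M1 has 2 labelled libraries but 1 column in the table, and was used as 1 replicate. No group received AOM or DSS alone, so effects of the carcinogen, of the injury and of tumours cannot be told apart, and CRC names the treated group. In whole tissue, fewer cells of a type and less RNA per cell cannot be told apart either.

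A miRNA is a short RNA that guides Argonaute proteins to messenger RNAs, mainly through its seed (bases 2 to 8), and lowers their output. Reference miRNAs are measured beside a miRNA of interest, often by PCR, and serve as the denominator. They are taken to be expressed in most cells and to differ little between conditions.

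The mature sequences are printed because they show which of the 8 share a seed and which could share reads. They are those of RefSeq on GRCm38.p6, written 5′ to 3′ with the seed in capitals, and all 8 were the same as in the deposited table:
mmu-miR-191-5p: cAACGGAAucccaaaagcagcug
mmu-miR-425-5p: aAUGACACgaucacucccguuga
mmu-miR-103-3p: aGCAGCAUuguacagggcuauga
mmu-miR-107-3p: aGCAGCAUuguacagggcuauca
mmu-miR-423-3p: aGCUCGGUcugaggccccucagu
mmu-miR-423-5p: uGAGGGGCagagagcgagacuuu
mmu-miR-361-5p: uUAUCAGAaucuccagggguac
mmu-miR-186-5p: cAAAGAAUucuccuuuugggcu

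The 8 miRNAs carried 7 seeds. Only miR-103-3p and miR-107-3p shared one, and these differ by 1 base (G22C, counted from the 5′ end of miR-103-3p). Reads that end before position 22 could belong to either, and no source used here says how such reads were counted. Both hold AGCAGC from position 1, while the 7 members of the related miR-15 group examined here (miR-15a, miR-15b, miR-16, miR-195a, miR-322, miR-497a and miR-503) hold it from position 2. The GC content of the 8 ran from 40.9% in miR-186-5p to 65.2% in miR-423-3p.

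The genes lie at 8 loci of GRCm38. Mir191 (chromosome 9, 108568319 to 108568392) and Mir425 (108568777 to 108568861) are 384 bases apart on the same strand and overlap an exon of the noncoding 4833445I07Rik. They lie upstream of Dalrd3, whose transcripts are known to carry them. The 3 pantothenate kinase genes, whose enzymes start coenzyme A synthesis, hold the next ones in introns: Mir103-1 in Pank3 (chromosome 11, 35782396 to 35782481), Mir103-2 in Pank2 (chromosome 2, 131288052 to 131288137) and Mir107 in Pank1 (chromosome 19, 34820687 to 34820773). Mature miR-103-3p comes from both of its loci and cannot be assigned to either. Mir423 lies in an intron of the splicing regulator gene Nsrp1, Mir361 in an intron of Chm (chromosome X, 113074824 to 113074893), whose product helps to attach lipids to Rab proteins, and Mir186 in an intron of the splicing factor gene Zranb2 (chromosome 3, 157544279 to 157544349).

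miR-423-5p and miR-423-3p are the arms of a single hairpin, Mir423 (chromosome 11, 77078064 to 77078172, minus strand). Its RefSeq sequence is shown because the arms differed in their profiles over these mice, with the 5p arm as the first and the 3p arm as the last stretch of capitals:
Mir423: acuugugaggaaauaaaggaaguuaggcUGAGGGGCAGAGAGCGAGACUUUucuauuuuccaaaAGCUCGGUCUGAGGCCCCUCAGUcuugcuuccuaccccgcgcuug

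Library totals ran from 3206127 to 6601899 miRNA reads in the CRC mice and from 8222508 to 15280434 in the healthy mice. The 8 members together took 1.80% to 2.71% of the reads in CRC mice and 1.76% to 2.16% in healthy mice. Their lowest count was 559 (miR-186-5p in M6), so counting error reached at most 4.23% of any value. That error does not include the spread between animals. Of the tissue markers, 9 intestinal epithelium miRNAs took 13.7% to 17.7% of the reads in CRC mice and 12.4% to 14.3% in healthy mice, and the liver miRNA miR-122-5p at most 0.000449%. The 5 leukocyte miRNAs took 0.767% in M4, 1.07% in M5 and 1.21% in M6, against 0.277% in healthy M1, 0.185% in M2 and 1.70% in M3. The 6 smooth muscle miRNAs took 20.7% in M4, 7.07% in M5 and 6.55% in M6, against 41.6% in healthy M1, 48.0% in M2 and 21.1% in M3. The 3 red blood cell miRNAs took 0.044% in M4, 0.286% in M5 and 0.150% in M6, against 0.026% in healthy M1, 0.016% in M2 and 0.062% in M3. The 2 nerve miRNAs took 0.014% to 0.017% in CRC mice and 0.022% to 0.028% in healthy mice. Under TMM the median log2 fold change was -1.98 for the smooth muscle list, 1.45 for the red blood cell list, -1.50 for the nerve list and 0.05 for the leukocyte list. In each of these lists 0 were called, against 2.28% of all tested miRNAs. An unadjusted p under 0.05 in edgeR was found for 6 of 6, 1 of 3, 1 of 2 and 0 of 5, in that order, against 23.2% of all. By total counts 1 of the 6 smooth muscle miRNAs was called lower, against 0.114% of all. M3 and M4 had like muscle shares, although M3 is labelled healthy and M4 CRC, and results are also given without both.

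The 5 most abundant miRNAs took 37.4% to 45.5% of the reads in CRC mice and 44.1% to 61.0% in healthy mice. Scaling by total counts divides by all reads. TMM, the trimmed mean of log ratios, and median-ratio scaling use the bulk of the miRNAs instead. TMM factors were 0.949 in M4, 1.55 in M5 and 1.47 in M6, against 0.720 in healthy M1, 0.582 in M2 and 1.10 in M3. The median-ratio factors were 0.973, 1.53 and 1.43 in these CRC mice, against 0.756, 0.557 and 1.12 in the healthy mice. Relative to TMM, total counts raised log2 fold changes of CRC over healthy by a median of 0.71, and median-ratio scaling by 0.01. The part that the muscle share or the depth plays in this was not tested.

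None of the 8 reference miRNAs passed the test of CRC against healthy mice under any of the 3 scalings, and most log2 fold changes had another sign by total counts than under TMM. Under TMM 7 of the 8 had a negative log2 fold change, under median-ratio scaling the same number, and under total counts all 8 were positive. edgeR's quasi-likelihood test called 0 of 8 at a Benjamini-Hochberg adjusted p of 0.05 under each scaling. Over all 878 miRNAs it called 2.28% under TMM (2.28% higher in CRC, 0% lower). By total counts it called 4.9% (4.78% higher, 0.114% lower) and under median-ratio scaling 3.19% (2.96% higher, 0.228% lower). An unadjusted p under 0.05 was found for 0 of 8 members under each scaling, against 23.2% of all tested miRNAs under TMM, 22.3% by total counts and 23.1% under median-ratio scaling. DESeq2 called 0 of 8, against 12.6% of all tested miRNAs, and limma-voom 0 of 8, against 0% of all. Adjusted p-values of the 8 in edgeR lay between 0.467 and 0.976 under TMM, between 0.366 and 0.823 under total counts and between 0.455 and 0.986 under median-ratio scaling. In no member and under none of the 3 scalings were all CRC mice on one side of all healthy mice. Groups did not overlap for 26.5% of tested miRNAs under TMM (14.1% higher and 12.4% lower in every CRC mouse), 22.9% by total counts (19% and 3.87%) and 26.8% under median-ratio scaling (14% and 12.8%).

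miR-191-5p, a widely used reference, had 9590 CPM (the count scaled to a common library size, here by total reads) in M4, 5443 in M5 and 6629 in M6, against 7228 CPM in healthy M1, 6420 in M2 and 5321 in M3. On this scale M4 stood highest and the other mice of both groups lay together. On the TMM scale the same counts became 10110 CPM in M4, 3511 in M5 and 4515 in M6, against 11030 CPM in healthy M2, 10032 in M1 and 4817 in M3. Now M4 sat beside the healthy mice M1 and M2, and M3 beside the CRC mice M5 and M6. The log2 fold change was 0.19 under total counts (SE 0.32, 95% interval -0.52 to 0.91). Group means were 7221 ± 2136 CPM in CRC and 6323 ± 957 CPM in healthy mice by total counts (SD, n = 3 each), and 6045 ± 3556 CPM in CRC and 8626 ± 3337 CPM in healthy mice on the TMM scale. The log2 fold change was -0.51 under TMM (SE 0.50, interval -1.62 to 0.60) and -0.52 under median-ratio scaling (SE 0.49).

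miR-425-5p, made from the neighbouring hairpin, had the same shape at a lower level. Its total-count values were 2056 CPM in M4, 1533 in M5 and 1770 in M6, against 1878 CPM in healthy M1, 1641 in M2 and 1324 in M3. TMM scaling gave it 2167 CPM in M4, 989 in M5 and 1206 in M6, against 2607 CPM in healthy M1, 2819 in M2 and 1199 in M3. The mice again split by value into M1, M2 and M4 on the high side and M3, M5 and M6 on the low side. The log2 fold change was 0.15 under total counts (SE 0.33, interval -0.60 to 0.89), -0.60 under TMM (SE 0.47, interval -1.66 to 0.45) and -0.60 under median-ratio scaling (SE 0.46).

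**Figure D1:**
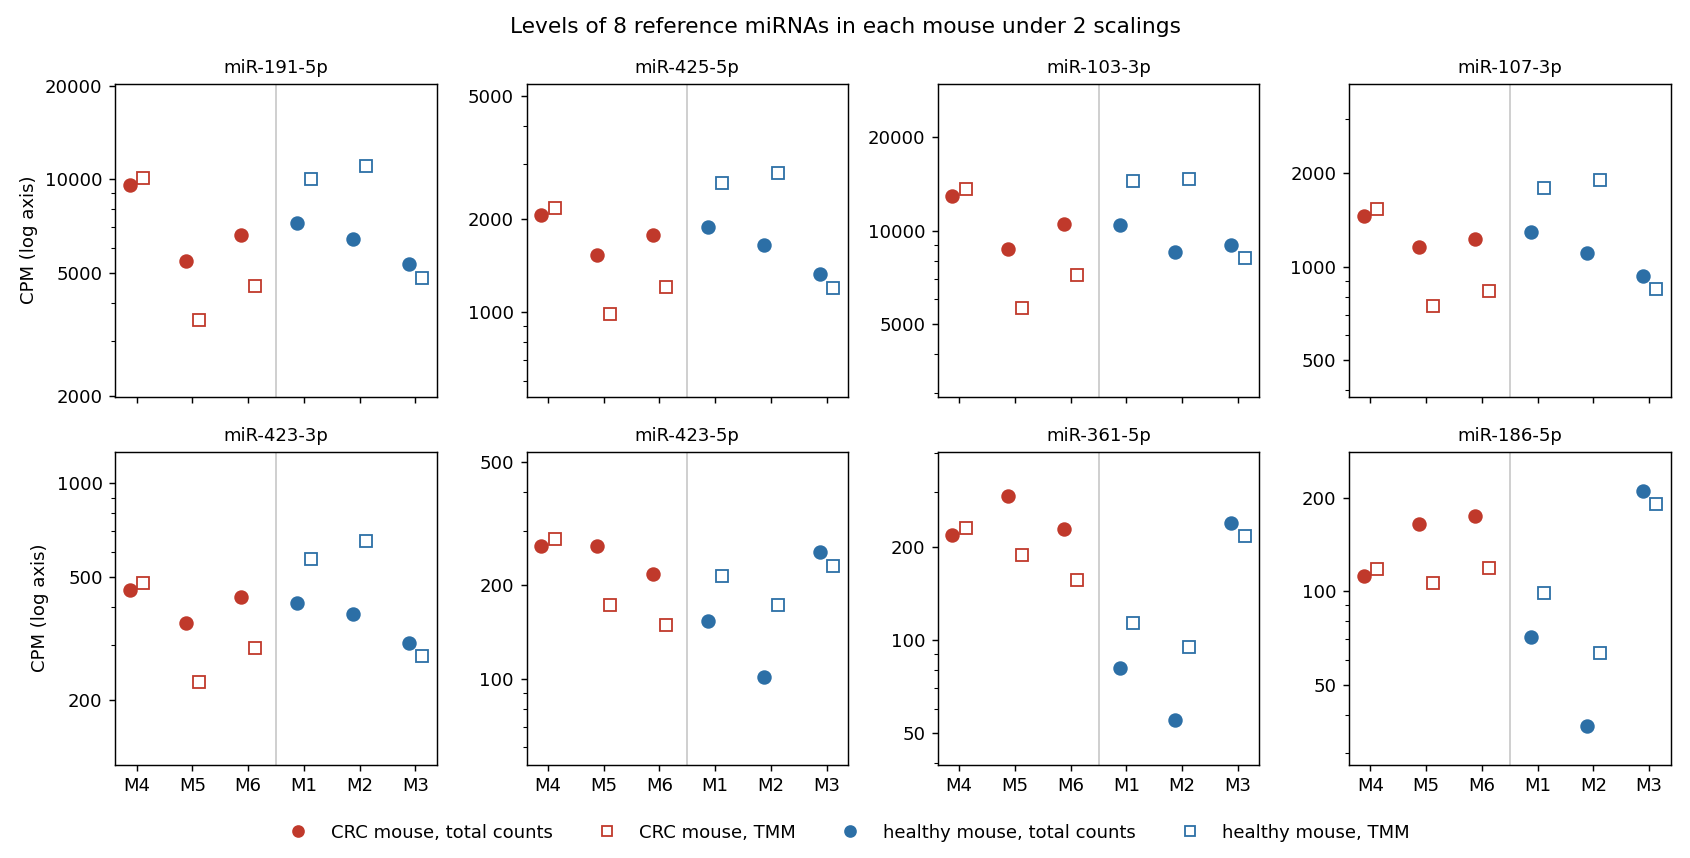
Level of each of the 8 reference miRNAs in each mouse, in CPM on a log axis that spans the same ratio in every panel. Filled circles are scaled by total counts and open squares by TMM, with CRC mice (M4 to M6) left of the line and healthy mice (M1 to M3) right of it. In the first 5 panels the circles lie closer together than the squares. For miR-423-5p, miR-361-5p and miR-186-5p the squares lie closer together.

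miR-103-3p, the most abundant of the 8, and miR-107-3p are known in mice to lower insulin sensitivity in liver and fat. By total counts miR-103-3p had 12943 CPM in M4, 8753 in M5 and 10536 in M6, against 10452 CPM in healthy M1, 8561 in M2 and 8998 in M3. M4 was again the highest mouse, and the other CRC mice lay within the healthy range or just above it. After TMM scaling it had 13644 CPM in M4, 5647 in M5 and 7177 in M6, against 14507 CPM in healthy M1, 14708 in M2 and 8145 in M3. Its log2 fold change was 0.20 under total counts (SE 0.28, interval -0.43 to 0.83) and -0.50 under TMM (SE 0.43, interval -1.47 to 0.48). Median-ratio scaling gave -0.50 (SE 0.43).

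miR-107-3p had 1454 CPM in M4, 1158 in M5 and 1227 in M6 by total counts, against 1291 CPM in healthy M1, 1106 in M2 and 936 in M3. Its TMM values were 1532 CPM in M4, 747 in M5 and 836 in M6, against 1792 CPM in healthy M1, 1901 in M2 and 848 in M3. The groups overlapped on both scales, with M3 lowest by total counts and M5 lowest on the TMM scale. The log2 fold change was 0.20 under total counts (SE 0.34, interval -0.56 to 0.96), -0.54 under TMM (SE 0.46, interval -1.58 to 0.50) and -0.54 under median-ratio scaling (SE 0.46). Because of the near-identical sequences, the split of reads between miR-103-3p and miR-107-3p is uncertain.

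By total counts miR-423-3p had 454 CPM in M4, 355 in M5 and 430 in M6, against 412 CPM in healthy M1, 380 in M2 and 306 in M3. With TMM factors it had 478 CPM in M4, 229 in M5 and 293 in M6, against 571 CPM in healthy M1, 653 in M2 and 277 in M3. It thus fell into the same high mice (M1, M2 and M4) and low mice (M3, M5 and M6) as the 4 miRNAs above. Its log2 fold change was 0.18 under total counts (SE 0.38, interval -0.67 to 1.02), -0.58 under TMM (SE 0.48, interval -1.65 to 0.48) and -0.59 under median-ratio scaling (SE 0.47).

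The other arm, miR-423-5p, differed less between mice on the TMM scale than by total counts, the reverse of miR-423-3p. On the TMM scale it had 282 CPM in M4, 173 in M5 and 148 in M6, against 213 CPM in healthy M1, 173 in M2 and 231 in M3, so the CRC mice lay on both sides of the healthy range. By total counts it had 267 CPM in M4, 268 in M5 and 218 in M6, against 154 CPM in healthy M1, 101 in M2 and 255 in M3. There the healthy mice M1 and M2 lay below all the others. Group means on the TMM scale were 201 ± 71.1 CPM in CRC and 206 ± 29.6 CPM in healthy mice (SD, n = 3 each). The log2 fold change was -0.04 under TMM (SE 0.41, interval -0.96 to 0.89), -0.03 under median-ratio scaling (SE 0.40) and 0.56 under total counts (SE 0.47, interval -0.49 to 1.61).

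miR-361-5p, known in human cells to repress VEGFA, was the only member with a positive log2 fold change under all 3 scalings. By total counts it had 218 CPM in M4, 291 in M5 and 228 in M6, against 81.4 CPM in healthy M1, 55.0 in M2 and 238 in M3. After TMM scaling it had 230 CPM in M4, 188 in M5 and 156 in M6, against 113 CPM in healthy M1, 94.6 in M2 and 216 in M3. M3 lay among the CRC mice on both scales. Group means on the TMM scale were 191 ± 37.5 CPM in CRC and 141 ± 65.4 CPM in healthy mice (SD, n = 3 each). Its log2 fold change was 0.98 under total counts (SE 0.59, interval -0.34 to 2.30), 0.44 under TMM (SE 0.45, interval -0.56 to 1.44) and 0.45 under median-ratio scaling (SE 0.44).

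miR-186-5p was the least abundant member. By total counts it had 112 CPM in M4, 165 in M5 and 174 in M6, against 71.0 CPM in healthy M1, 36.8 in M2 and 211 in M3, a 5.74-fold range over the mice. With TMM factors the CRC mice lay together, at 118 CPM in M4, 106 in M5 and 119 in M6, against 98.6 CPM in healthy M1, 63.2 in M2 and 191 in M3. The healthy mice thus lay on both sides of the CRC mice, with group means of 114 ± 7.00 CPM in CRC and 118 ± 66.1 CPM in healthy mice (SD, n = 3 each). The leukocyte share of reads given above was likewise lowest in M1 and M2 and highest in M3. miR-361-5p was also lowest in M1 and M2, but highest in M5 by total counts and in M4 under TMM. The part of the leukocyte share in the values of these miRNAs was not tested. For miR-186-5p the log2 fold change was -0.04 under TMM (SE 0.47, interval -1.10 to 1.02), -0.02 under median-ratio scaling (SE 0.47) and 0.50 under total counts (SE 0.64, interval -0.95 to 1.95).

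A test that makes no call does not show that a miRNA is level, so the width of the interval was read as well. The 95% interval stayed within a 2-fold change either way (log2 of -1 to 1) for 4 of 8 members under total counts: miR-191-5p, miR-425-5p, miR-103-3p and miR-107-3p. It did so for 1 of 8 under TMM and under median-ratio scaling, miR-423-5p in both. Over all tested miRNAs the share was 4.21% under total counts, 2.85% under TMM and 2.73% under median-ratio scaling. The 4 members within the bound by total counts are those with a mean of at least 1000 CPM, and no share over miRNAs of like abundance was computed. Among 12 other reference miRNAs, let-7a-5p, miR-16-5p, miR-24-3p, miR-30c-5p, miR-345-5p and miR-484 were also within it by total counts. These had means of at least 1000 CPM too, and the rest of the 12 were not within the bound. No member had its interval within that bound under all 3 scalings. Over the 8, the log2 fold changes had a median of 0.20 under total counts against 0.62 over all tested miRNAs, -0.51 against -0.03 under TMM and -0.51 against -0.03 under median-ratio scaling. Set against that median of all miRNAs, the first 5 members lay at -0.57 to -0.47 under TMM and -0.48 to -0.42 by total counts. Under median-ratio scaling they lay at -0.58 to -0.47. A change of scaling moves log2 fold changes nearly alike, so the likeness of these values between scalings holds largely by construction. The 9 epithelial miRNAs had a median log2 fold change of -0.49 under TMM and 0.10 by total counts, with 0 of 9 called.

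**Figure D2:**
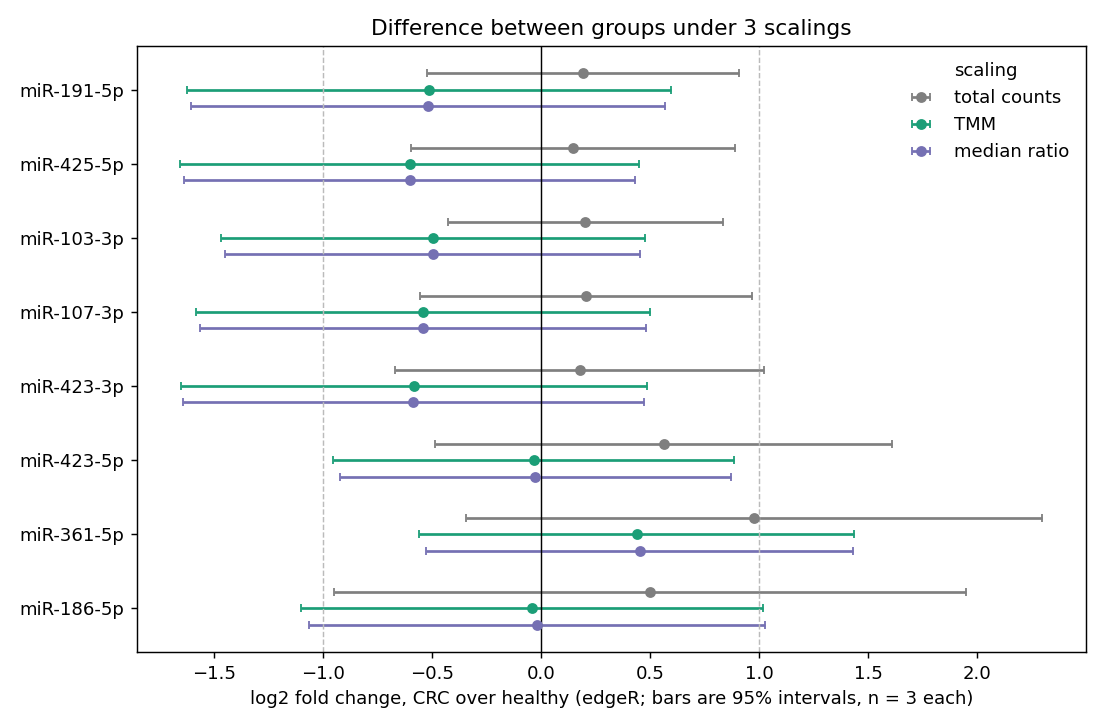
Log2 fold change of CRC over healthy for each reference miRNA under 3 scalings, with 95% intervals from edgeR (3 mice per group); dashed lines mark a 2-fold change. The first 5 miRNAs lie right of 0 under total counts and left of 0 under TMM and median-ratio scaling, and every interval includes 0.

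A reference should also differ little from animal to animal, and over the 6 mice of both groups the members separated by scale. By total counts the SD of log2 CPM over the 6 mice was 0.21 for miR-423-3p, 0.21 for miR-107-3p, 0.22 for miR-425-5p, 0.23 for miR-103-3p and 0.31 for miR-191-5p. These ranked 13, 15, 19, 20 and 62 from the smallest among 878 tested miRNAs. The SD was 0.57 for miR-423-5p, 0.95 for miR-186-5p and 0.98 for miR-361-5p, ranks 229, 521 and 535. On the TMM scale these 3 had the smaller SDs: miR-423-5p had 0.34 (rank 77), miR-186-5p 0.51 (rank 221) and miR-361-5p 0.52 (rank 229). The other 5 had 0.60 to 0.72, ranks 309 to 421, with miR-191-5p the widest. Median-ratio scaling gave 0.30 for miR-423-5p (rank 56) and 0.71 for miR-191-5p (rank 411).

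Within the groups miR-186-5p gave the clearest contrast on the TMM scale, with an SD of 0.09 over the CRC mice and 0.80 over the healthy mice. miR-191-5p had 0.80 over the CRC mice and 0.65 over the healthy mice. With 3 mice per group such SDs are imprecise, and their difference was not tested. Abundant miRNAs had the smaller spread as a set. Over all tested miRNAs the median SD was 0.83 by total counts and 0.74 on the TMM scale. With a mean of at least 1000 CPM it was 0.42 by total counts (86 miRNAs) and 0.60 on the TMM scale (87 miRNAs). The abundant members ranked 8 (miR-107-3p) to 28 (miR-191-5p) of these 86 and 44 (miR-103-3p) to 62 (miR-191-5p) of these 87.

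**Figure D3:**
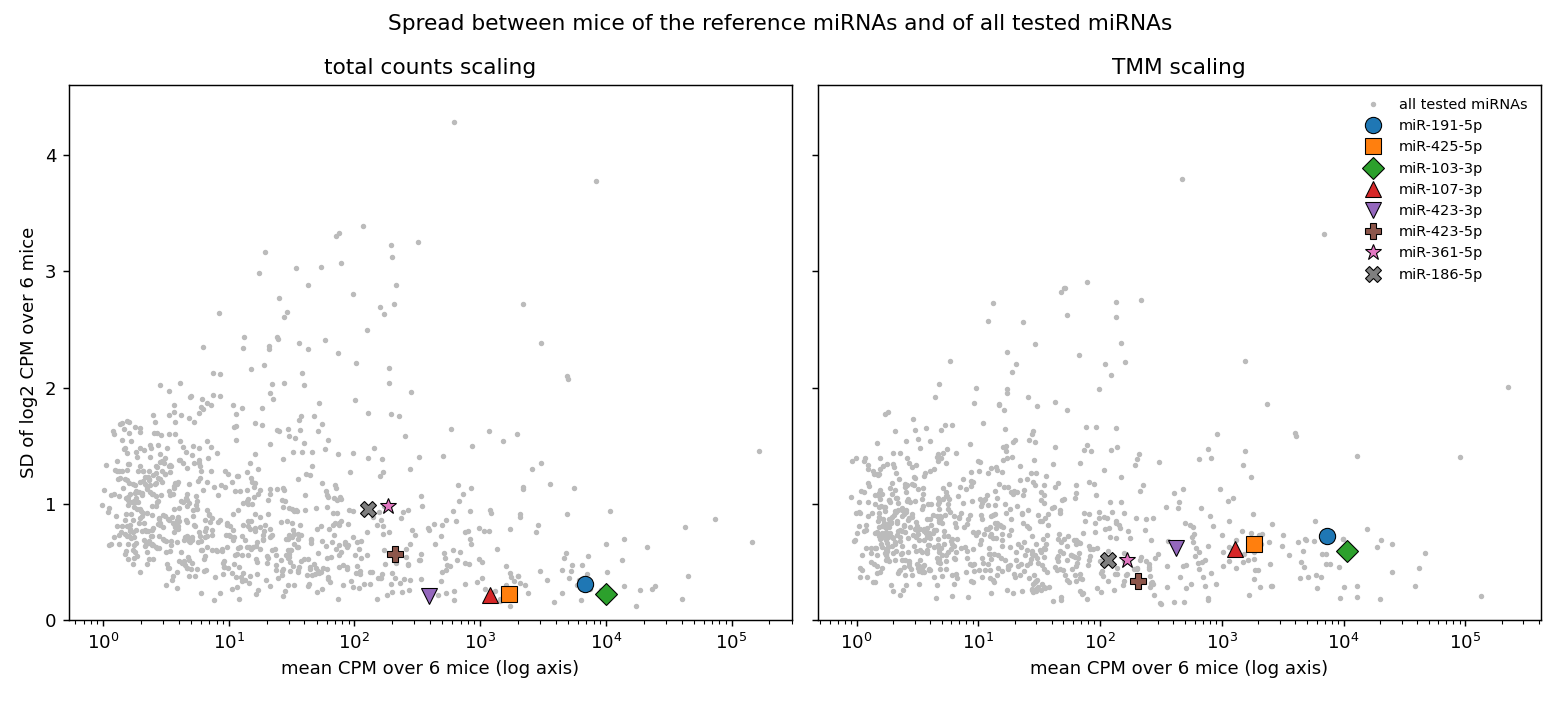
SD of log2 CPM over the 6 mice against mean CPM (log axis) for 878 tested miRNAs, by total counts on the left and on the TMM scale on the right. The reference miRNAs are marked singly. Of them, 5 lie at SDs of 0.21 to 0.31 on the left and 0.60 to 0.72 on the right, while miR-423-5p, miR-361-5p and miR-186-5p move the other way.

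The ratio of 2 miRNAs in the same library does not depend on scaling, so the 28 pairs of members were compared directly. miR-191-5p, miR-425-5p, miR-103-3p, miR-107-3p and miR-423-3p kept nearly constant ratios to each other in all 6 mice. The SD of the log2 ratio over the mice was 0.055 to 0.17 for the 10 pairs among them, and their mean log2 ratios differed between CRC and healthy mice by -0.06 to 0.03. This grouping of 5 and 3 was made after the values were seen and has no test. For reference, 0.709% of the 22578 pairs among 213 tested miRNAs with a mean of at least 100 CPM had an SD of 0.17 or less. The median SD over these pairs was 0.84.

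The tightest pairs came from separate chromosomes. miR-425-5p exceeded miR-423-3p by 2.18 log2 units in M4, 2.11 in M5 and 2.04 in M6, against 2.19 in healthy M1, 2.11 in M2 and 2.11 in M3 (SD over the 6 mice 0.055). miR-425-5p exceeded miR-107-3p by 0.50 in M4, 0.40 in M5 and 0.53 in M6, against 0.54 in healthy M1, 0.57 in M2 and 0.50 in M3 (SD 0.057). The pair from neighbouring hairpins was less tight. miR-191-5p exceeded miR-425-5p by 2.22 in M4, 1.83 in M5 and 1.90 in M6, against 1.94 in healthy M1, 1.97 in M2 and 2.01 in M3 (SD 0.13).

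The 2 arms of Mir423 did not keep a constant ratio. miR-423-3p exceeded miR-423-5p by 0.76 log2 units in M4, 0.41 in M5 and 0.98 in M6, against 1.42 in healthy M1, 1.91 in M2 and 0.26 in M3. The CRC values lay between those of M3 and those of M1 and M2. The mean difference between CRC and healthy mice was -0.48, with SDs of 0.29 in CRC and 0.85 in healthy mice (n = 3 each; two-sided exact permutation p = 0.5, adjusted p = 0.84). The difference was -0.95 without M3 and -0.12 without M2.

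The 15 pairs that joined 1 of the 5 with miR-423-5p, miR-361-5p or miR-186-5p had SDs of 0.53 to 1.09, and in all 15 the difference was negative, from -1.10 to -0.45. These 15 are not independent, since the 5 have nearly the same profile. In all 5 ratios to miR-361-5p the CRC mean lay below the healthy mean, by -1.10 to -1.05 log2 units. As an example, miR-103-3p exceeded it by 5.89 log2 units in M4, 4.91 in M5 and 5.53 in M6, against 7.00 in healthy M1, 7.28 in M2 and 5.24 in M3. M3 lay within the CRC values, so the groups overlapped (mean difference -1.07, exact permutation p = 0.3, adjusted p = 0.84). The difference was -1.70 without M3 and -0.68 without M2. miR-361-5p and miR-186-5p were closer to each other, with an SD of 0.33 over the mice and a mean log2 ratio of 0.73 in CRC and 0.32 in healthy mice. Groups did not overlap for 0 of the 28 pairs, against 21.2% of the 22578 pairs named above. The lowest exact permutation p over the 28 pairs was 0.2, reached by 2 pairs, with an adjusted p of 0.84; the smallest that 3 mice against 3 allow is 0.1.

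**Figure D4:**
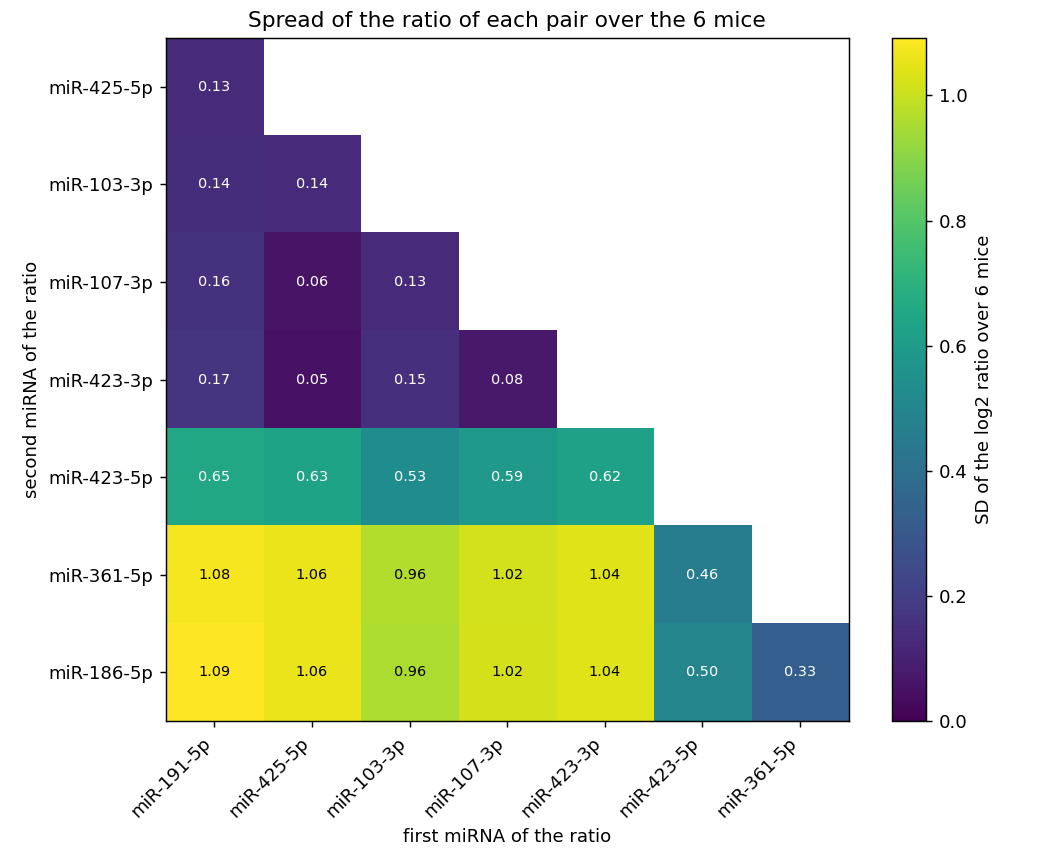
SD over the 6 mice of the log2 ratio of each pair of reference miRNAs, a measure that library scaling does not touch. Pairs among the first 5 miRNAs have SDs of at most 0.17, and their ratios to miR-361-5p and miR-186-5p have SDs of 0.96 to 1.09.

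The mean SD of a member's ratios to the other 7 was 0.43 for miR-103-3p, 0.44 for miR-107-3p, 0.45 for miR-425-5p, 0.45 for miR-423-3p and 0.49 for miR-191-5p. It was 0.57 for miR-423-5p, 0.85 for miR-361-5p and 0.86 for miR-186-5p. Since 5 of the 8 vary together, this measure favours those 5 by construction.

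On the TMM scale the profile most like each of the 5, among 212 other miRNAs with a mean of at least 100 CPM, was that of another of the 5. Over the 6 mice, miR-425-5p correlated best with miR-107-3p and miR-423-3p (Pearson r = 0.998 for each, log2 CPM on the TMM scale) and miR-191-5p with miR-103-3p (0.995). All pairs of the 5 had r of at least 0.97 on that scale, which the shared scaling factors raise, and of 0.78 to 0.97 by total counts, where miR-103-3p was most like miR-652-3p (0.958). miR-423-5p was most like let-7b-5p (0.984), miR-361-5p most like miR-140-5p (0.973) and the leukocyte miRNA miR-155-5p (0.959), and miR-186-5p most like miR-130a-3p (0.954). After miR-130a-3p came miR-324-5p (0.947) and miR-365-3p (0.924) for miR-186-5p. By total counts miR-361-5p was most like miR-155-5p (0.997), then miR-135b-5p (0.988) and miR-96-5p (0.987). On that scale miR-186-5p was most like let-7d-3p (0.990), then the leukocyte miR-142a-3p (0.987) and miR-142b (0.986). These last 2 had close values in every mouse, such as 9945 and 10090 CPM in M3 on the TMM scale, and are not separate likenesses. These are descriptions of 6 profiles and carry no test.

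Without M3 and M4 edgeR's log2 fold changes on the TMM scale were -1.66 for miR-191-5p, -1.58 for miR-425-5p, -1.50 for miR-423-3p, -1.50 for miR-107-3p and -1.46 for miR-103-3p. The other 3 had -0.56 for miR-423-5p, 0.44 for miR-361-5p and 0.20 for miR-186-5p. For the first 5, M3 and M4 are the mice whose TMM values lay with the other group, so leaving both out widens the contrast by construction, and these values are given as a description with no test. In that fit of 2 mice against 2, 53.2% of 1082 tested miRNAs were called. Between the 2 mice left out, M4 exceeded M3 by 1.07 log2 units for miR-191-5p, by 0.74 to 0.85 for the rest of the 5 and by 0.09 for miR-361-5p, and lay below it by -0.70 for miR-186-5p.

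The choice of reference moved the apparent change of other miRNAs. Against any of the 5, miR-16-5p, itself often used as a reference, had a difference of mean log2 ratios between CRC and healthy mice of -0.04 to 0.02. Against miR-186-5p it had -0.67, and against miR-361-5p -1.08. The log2 fold change of miR-16-5p itself was -0.55 under TMM and 0.11 under total counts, near those of the 5 on each scale. Under TMM every CRC mouse lay below every healthy mouse for it, as for 12.4% of all tested miRNAs. Small differences against the 5 thus do not show that miR-16-5p was level. For the inflammation-related miR-21a-5p the difference was 0.83 against miR-425-5p, 0.13 against miR-186-5p and -0.28 against miR-361-5p. miR-15a-5p had 1.34 against miR-425-5p and 0.23 against miR-361-5p, positive against all 8. The smooth muscle miR-145a-5p was negative against all 8, from -3.33 to -2.23. Of these 32 ratios, the lowest exact permutation p was 0.1 and the lowest adjusted p 0.376. Groups did not overlap for miR-145a-5p against each of the 5, and for miR-16-5p against miR-423-5p and miR-361-5p, against 21.2% of the 22578 background pairs.

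Of other miRNAs used as references, 5 of 12 listed had opposite signs under total counts and TMM, and 7 kept theirs. Of the 12, 0 passed edgeR's test under TMM, where 8 had negative log2 fold changes and 3 (25%, against 23.2% of all tested miRNAs) had an unadjusted p under 0.05; under total counts 0 passed and 9 had positive ones. The median log2 fold change of the list was -0.52 under TMM and 0.15 under total counts. miR-25-3p, of the miR-106b cluster, had the third smallest SD on the TMM scale, 0.16, with 520 CPM in M4, 491 in M5 and 452 in M6, against 401 CPM in healthy M1, 527 in M2 and 525 in M3. By total counts its SD was 0.58 and its log2 fold change 0.71 (SE 0.43). miR-26a-5p, which was among the lower ones under TMM (-1.21, SE 0.41, adjusted p = 0.119 in edgeR), had -0.44 under total counts (SE 0.27).

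The miRNAs that were most level by rank also depended on the scale. Among those with a mean of at least 1000 CPM, the 5 smallest SDs on the TMM scale belonged to miR-30d-5p (0.18), miR-30b-5p (0.19), miR-200b-3p (0.20), miR-21a-5p (0.21) and miR-101b-3p (0.22). Median-ratio scaling gave the same 5. By total counts they were miR-23a-3p (0.12), miR-199a-5p (0.13), miR-181a-5p (0.16), let-7e-5p (0.16) and let-7g-5p (0.17). No member was among either 5. miR-30d-5p had 19106 CPM in M4, 21016 in M5 and 19358 in M6, against 15917 CPM in healthy M1, 21561 in M2 and 22580 in M3 on the TMM scale. miR-23a-3p had 18910 CPM in M4, 17538 in M5 and 15224 in M6, against 19283 CPM in healthy M1, 17266 in M2 and 16700 in M3 by total counts.

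The opposite arms of the members' hairpins, Mir423 aside, had means of 4.79 CPM (miR-103-1-5p) to 45.1 CPM (miR-361-3p) on the TMM scale. Of 7 such arms 0 passed edgeR's test under any of the 3 scalings, with 0 at an unadjusted p under 0.05. Their log2 fold changes ran from -1.25 (miR-103-1-5p) to 0.28 (miR-186-3p) under TMM. Arm balance was compared for the 6 hairpins with 1 entry for each arm. The groups did not overlap for 1 of the 6, Mir361, against 13.7% of 241 hairpins with both arms tested: miR-361-5p exceeded miR-361-3p by 1.90 log2 units in M4, 3.33 in M5 and 2.21 in M6, against 1.50 in healthy M1, 1.19 in M2 and 1.51 in M3. The mean difference was 1.08 (two-sided exact permutation p = 0.1, the smallest that 3 mice against 3 allow; adjusted p = 0.6 over 6 hairpins). Uneven arm ratios were not particular to Mir423. Over the healthy mice the SD of the log2 arm ratio was 0.90 for Mir425, 0.86 for Mir191 and 0.85 for Mir423. It was 0.17 for Mir107, 0.17 for Mir186 and 0.18 for Mir361.

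The related miR-15 group gave 0 calls among 7 tested members under each scaling. Its median log2 fold change was 0.25 under TMM and 0.92 under total counts, against -0.54 and 0.20 for miR-107-3p. The group was mixed under TMM, with 4 positive and 3 negative values, from -1.40 for miR-503-5p to 0.47 for miR-15a-5p. Under total counts 6 were positive and 1 negative. On the TMM scale miR-195a-5p was the most even of the group, with an SD of 0.28 over the mice, and miR-503-5p the least even, with 1.01.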

How the data were processed

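Small RNA was sequenced on an Ion Proton, per the labels' protocols. BWA and mm10 (GRCm38) are named in the submitters' processing notes. What the authors deposited are whole-number counts of 1915 mature miRNAs in 6 columns; the values are whole and their totals differ between mice, so they were taken as not normalized. The column M1 names a mouse with 2 labelled libraries. The test was edgeR's quasi-likelihood test (edgeR 4.0.16, R 4.3.3), two-sided, after filterByExpr by group (878 entries kept) and with robust dispersions, and p-values were adjusted over all tested entries (Benjamini-Hochberg, 0.05). The fit was run with TMM, total-count and median-ratio (RLE) scaling. SEs were derived from each log2 fold change and its F statistic. SDs are of log2 CPM with a prior count of 2. Ratios had 0.5 added to counts and were tested by exact permutation over 20 splits. DESeq2 1.42.0 and limma-voom (limma 3.58.1) served as other tools. The scripts were tested on simulated data, where the edgeR step called 13.6% of 2-fold, 58.6% of 4-fold and 97.7% of 8-fold changes. Of its 138 calls there, 11 were false, and it made 0 calls in simulated data with no change set. Apart from the changes set, the simulated libraries shared a profile, so the choice of scaling was not tested. Named beside the members are their opposite arms, 12 other reference miRNAs, the miR-15 group, the 3 miRNAs most alike in profile to each member, the 5 with the smallest SD, and 4 examples. Members and lists were chosen with earlier results of these data known. Mice are separate animals, and the labels give no batch. Intervals of counting error cover counting only. Flagging samples that stand apart needs 4 or more per group and was not possible. All values come from whole tissue.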

Additional observations from a re-analysis of the deposited data

How the results depend on the processing

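Between CRC and healthy mice, 20 of 878 tested miRNAs were called in all. The settings below tested 878 as well unless another number is given. The number was 43 with total counts alone, 39 of 885 with the top 5 miRNAs removed and 64 of 1914 with no filter. With a mean of at least 50 CPM it was 0 of 288 (58 at an unadjusted p under 0.05). DESeq2 called 111 and limma-voom 0 (216 at an unadjusted p under 0.05), and an adjusted p of 0.1 gave 80. Factors from the 8 members gave 19. Leaving out single mice gave 0 without M1, M5 or M6. At an unadjusted p under 0.05 these settings had 181 of 1096, 121 of 947 and 131 of 939, in that order. There were 4 calls of 1106 without M2, 63 of 1068 without M3 and 237 of 1188 without M4. Leaving out M3 with M4 gave 576 of 1082. Among the members, which were not tested with their own factors, 0 of 8 were called under each of the other settings except without M3 and M4, where 5 were: miR-191-5p (-1.66), miR-425-5p (-1.58), miR-103-3p (-1.46), miR-107-3p (-1.50) and miR-423-3p (-1.50). Over all tested miRNAs 53.2% were called in that setting. M3 and M4 are the mice whose values of these 5 lay with the other group, so the calls of the 5 are no support for a difference.

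Under total counts alone the log2 fold change turned to 0.19 for miR-191-5p, 0.15 for miR-425-5p, 0.20 for miR-103-3p, 0.20 for miR-107-3p, 0.18 for miR-423-3p, 0.56 for miR-423-5p and 0.50 for miR-186-5p. Other settings turned 2 members near 0: miR-423-5p had 0.078 with the top 5 removed and 0.18 with the 50 CPM filter, and miR-186-5p had 0.075 and 0.22 there, 0.11 in limma-voom and 0.20 without M3 and M4. Leaving out single mice gave log2 fold changes of -1.0 to -0.13 for miR-191-5p, -0.96 to -0.22 for miR-425-5p, -0.85 to -0.20 for miR-103-3p, -0.89 to -0.18 for miR-107-3p, -0.94 to -0.18 for miR-423-3p, -0.27 to 0.13 for miR-423-5p, 0.31 to 0.81 for miR-361-5p and -0.26 to 0.42 for miR-186-5p. SDs over the mice ranged from 0.22 to 0.42 for miR-423-5p and from 0.63 to 0.84 for miR-191-5p when single mice were left out.

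Without M3 and M4 the CRC minus healthy difference of log2 ratios was -0.090 for miR-191-5p over miR-425-5p and 0.025 for miR-103-3p over miR-107-3p, against 0.012 and -0.020 with all mice. Leaving out single mice gave -0.11 to 0.090 and -0.083 to 0.073 for these pairs. For miR-103-3p over miR-361-5p it gave -1.70 (without M3) to -0.68 (without M2), and for miR-423-3p over miR-423-5p -0.95 (without M3) to -0.12 (without M2). The causes were not tested. No paired analysis was possible because the groups share no mouse numbers. With 3 mice per group the intervals of the 8, not their counting error, limit what can be called level.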
